A study of Mus musculus with 8 samples.

Results

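The binding of RXR, a retinoid X receptor, was compared between mouse embryonic stem cells (ESCs) kept in leukemia inhibitory factor (LIF) and the neuronal cells (NCs) that arise after retinoic acid (RA). Chromatin immunoprecipitation followed by sequencing (ChIP-seq) recovers the DNA cross-linked to a protein, and places where the sequenced fragments pile up are called peaks. The members are 45810 RXR peaks of the 176687 peaks in the 8 libraries of the series, of which 30586 came from the LIF library and 15224 from the RA library. Both libraries came from the E14Tg2a line at passages 37 to 40, with the same antibody, which is labelled RXR while the sample titles say RXRα. The ESC library came from cells in medium with LIF, and the NC library from monolayers without LIF that received 1 µM RA for 48 h. Each is 1 library from pooled plates of 1 cell line, so the difference between the states has no replicate check and no test was made. A peak of one list was called kept where it shared at least 1 bp with a peak of the other list, and otherwise LIF only or RA only. A protein-coding gene was called kept, LIF only or RA only by whether peaks of both lists or of one list overlapped by at least 20 bp its proximal promoter, the window of 1000 bp on either side of any of its transcript starts. For counts of peaks, at or outside promoters, the same window was set around the starts of all annotated transcripts, those of noncoding genes included. Intervals after shares are exact Clopper-Pearson 95% intervals that cover counting error only, and neighbouring peaks and genes are not independent.

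RXRs are nuclear receptors, transcription factors that bind DNA through zinc fingers and respond to lipid-like ligands. They are the common partner with which the retinoic acid receptors (RARs), thyroid hormone, vitamin D and peroxisome proliferator-activated receptors and the orphan receptor Nur77 form heterodimers. The textbook RXR heterodimer site is a direct repeat of the hexamer AGGTCA or a close variant, in which the number of bases between the copies favours one partner over another. The RAR-RXR heterodimer is known for repeats with a spacer of 5 bases, called DR5, in the regulatory DNA of retinoid target genes such as Rarb.

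Sequences of 3 kinds of RXR site are shown, the DR5 repeat as the textbook site of the labelled receptor, rare in every class, and an NRF1 and a CTCF word as words whose shares differed between classes. Each is a stretch of 100 bp centred on the summit, or as near to it as the feature allowed, from the plus strand of the RefSeq GRCm38 genome, which has the mm10 coordinates of the peak lists. The first kind is the DR5 repeat, in capitals, at peaks named by the nearest protein-coding gene. Both sites shown were LIF only.

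Camta1, chr4:151897191-151897290: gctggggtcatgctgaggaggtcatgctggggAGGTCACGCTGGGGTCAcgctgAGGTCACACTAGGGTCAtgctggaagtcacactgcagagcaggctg
Rhobtb1, chr10:69005308-69005407: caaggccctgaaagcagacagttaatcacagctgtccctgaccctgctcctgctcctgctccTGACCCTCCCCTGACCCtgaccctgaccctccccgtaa

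The second kind was a promoter summit with the palindrome-like word GCGCANGC in capitals, the core of the site of the nuclear respiratory factor NRF1. The promoters of Psip1, Ugdh and Glud1 were kept, LIF only and RA only, in that order.

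Psip1, chr4:83486474-83486573: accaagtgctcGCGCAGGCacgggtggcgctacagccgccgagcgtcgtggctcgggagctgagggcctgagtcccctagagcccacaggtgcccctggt
Ugdh, chr5:65435967-65436066: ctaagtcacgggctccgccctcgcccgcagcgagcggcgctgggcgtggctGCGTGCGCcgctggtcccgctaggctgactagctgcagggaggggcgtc
Glud1, chr14:34310583-34310682: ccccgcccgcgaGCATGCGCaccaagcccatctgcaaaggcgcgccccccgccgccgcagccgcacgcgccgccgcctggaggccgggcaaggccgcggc

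The third kind was a site outside promoters with the core of the CTCF word in capitals. CTCF is the zinc finger protein that anchors chromatin loops. The sites near Ebf1, 1700021F07Rik and Esrrb were kept, LIF only and RA only, and the last lay in an intron of the annotation at −18729 bp from the nearest start of Esrrb, an orphan receptor of the pluripotency network.

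Ebf1, chr11:45008283-45008382: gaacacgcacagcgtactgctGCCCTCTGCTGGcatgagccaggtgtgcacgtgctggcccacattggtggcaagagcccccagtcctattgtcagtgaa
1700021F07Rik, chr2:173546476-173546575: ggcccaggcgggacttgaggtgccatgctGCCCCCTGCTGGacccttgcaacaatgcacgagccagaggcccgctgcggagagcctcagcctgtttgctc
Esrrb, chr12:86402865-86402964: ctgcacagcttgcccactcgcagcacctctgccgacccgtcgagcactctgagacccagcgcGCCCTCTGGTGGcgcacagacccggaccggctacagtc

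The direct repeats that would mark the labelled receptor were rare in every class. Each copy could be the hexamer AGGTCA or any of its variants, which were GGGTCA and also AGTTCA and lastly GGTTCA. Repeats of these with a spacer of 5 bases on either strand lay within the 100 bp around the summit at 10 of 22775 LIF-only peaks (0.0439%), against 0.0176% of flanks of the same length 400 bp away. They lay at 1 of 7811 kept peaks of the LIF list, at 0 of 7633 kept peaks of the RA list and at 3 of 7591 RA-only peaks. The same repeat was found at 0.0182% of 93472 transcript starts, each with 100 bp of sequence. The strongest DR5 peak was the LIF-only site near Camta1, with a −log10 p of 20.6 and a tandem of repeats in the sequence above, and no other library of the series had a peak there. The LIF-only site near Rhobtb1 had a −log10 p of 12.8 and was in none of the other libraries either. Repeats with a spacer of 1 base were at 15 LIF-only and 3 RA-only peaks, at 0.0659% and 0.0395%, against 0.0593% and 0.0790% of their flanks. The hexamer AGGTCA by itself was no more frequent at promoter summits than beside them. Peaks on an alternating purine-pyrimidine tract, a run of at least 20 bases in which a purine alternates with a pyrimidine, were counted apart. Outside promoters and without such a tract the hexamer was in 6.98% of LIF-only summits against 5.93% of flanks, and in 5.72% of RA-only summits against 5.55%. The sequence under the peaks thus gave no clear check of the RXR label. No DNA from before immunoprecipitation was analysed here.

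The libraries differed in depth, which touches every class below. The peak lists do not state a read total, so depth was solved from the deposited values as background fragments per kb. It came to 7.09 for the LIF library and 1.87 for the RA library, or 0.264 times as many. The weakest listed peak held 6 fragments at its summit in LIF and 4 in RA, and the medians were 12 and 9. The −log10 p of a peak rises with depth, so a value in LIF is not on the same footing as a value in RA. For this reason each class was also counted with the same number of peaks, the 15224 with the highest −log10 p in each list, which in LIF ended at a −log10 p of 10.5. A further count had LIF scaled to RA depth, in which the summit fragments and the background of each LIF peak were multiplied by 0.264 and the peak was dropped if it no longer passed the authors' p limit of 1e-05. That left 5846 LIF peaks. Peaks that passed this rule are described below as passing, or as listed, at RA depth. The rule does not measure what the RA library could list. It also left out that the fragment length, read from the narrowest peaks, was 80 bp in LIF and 116 bp in RA. All 4255 kept genes had a listed RA peak, and the LIF peak passed the rule at 1067 of them.

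Of 21951 protein-coding genes, 4255 were kept (19.4%), 5074 were LIF only (23.1%) and 864 were RA only (3.94%), while 11758 had no RXR peak at a promoter in either state. The genes bound in RA were thus mostly a subset of those bound in LIF. Of the 5119 genes bound in RA, 83.1% (82.1 to 84.1%) were also bound in LIF, whereas 45.6% (44.6 to 46.6%) of the 9329 genes bound in LIF were also bound in RA. At 3463 of the kept genes (81.4%, 80.2 to 82.5%) the peaks of the 2 lists coincided, and at the others they lay at different positions of the promoters of a gene. The kept genes rested on 3871 distinct LIF peaks, since neighbouring genes can share a peak.

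Lists of equal length do not test that asymmetry. They gave close totals of bound genes, 4916 in LIF and 5119 in RA. The shared genes are the same set for both lists, so close totals by themselves give close shares. With the same number of peaks, 2686 genes were kept (12.2%), 2230 were LIF only (10.2%) and 2433 were RA only (11.1%), so 54.6% of the LIF genes and 52.5% of the RA genes were shared. In this count 1569 genes moved from kept to RA only, and 2844 LIF-only genes had no peak left. With LIF scaled to RA depth, 1067 genes were kept (4.86%), 556 were LIF only (2.53%) and 4052 were RA only (18.5%). Of the 1623 LIF genes that still passed at RA depth, 65.7% (63.4 to 68.1%) were bound in RA. The RA list was not changed in this count, so its RA-only number belongs to that rule and is not an estimate of gained genes. The 556 LIF-only genes are the ones whose LIF peak passed the scaling rule, and the 864 RA-only genes are the ones absent from a list that was deeper.

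Genes and sites with stronger peaks were kept at a higher share. Among genes whose strongest LIF promoter peak held no tract, 29.7% (27.2 to 32.3%) of 1256 were kept where its −log10 p was from 5 to below 8. The share was 45.0% (43.0 to 47.0%) of 2446 from 10 to below 12, and 76.7% (68.6 to 83.6%) of 133 at 20 or more. In the other direction 78.9% (76.2 to 81.5%) of 949 genes with a weak RA peak, from 5 to below 8, were also bound in LIF, and 41 of 43 genes (95.3%) with an RA value of 20 or more. Outside promoters the slope was steeper. Of the LIF peaks without a tract there, 5.40% (4.60 to 6.30%) of 2813 were kept in the weakest range and 79.2% (74.6 to 83.2%) of 360 in the strongest, and the RA list went from 24.0% of 597 to 92.2% of 232. The median −log10 p of the strongest promoter peak was 11.5 in LIF and 10.0 in RA at kept genes, 10.1 at LIF-only genes and 9.46 at RA-only genes. At 1473 kept genes (34.6%) the value was higher in RA, although that library was the shallower one.

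**Figure D1:**
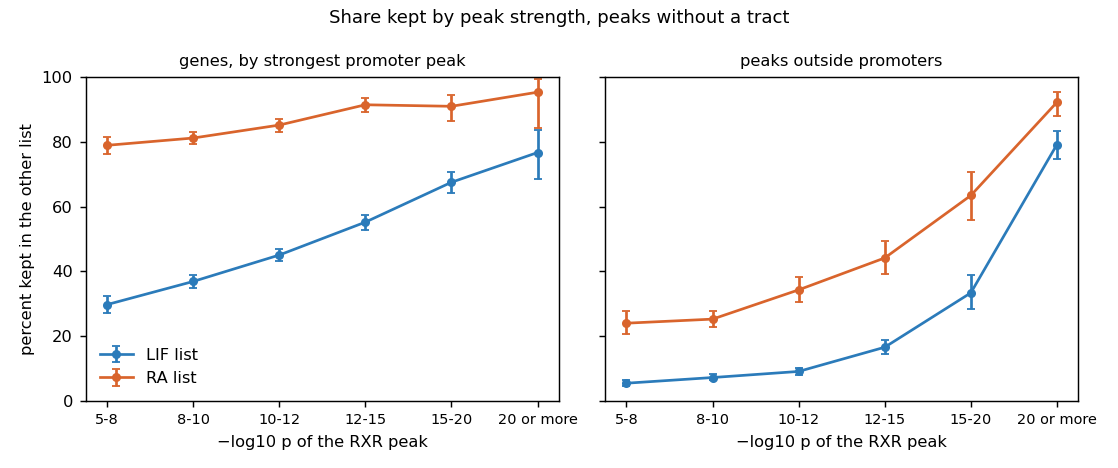
Percent of genes (left) and of peaks outside promoters (right) that were kept, by the −log10 p of the peak in the LIF list and in the RA list, peaks without a tract only. Points are shares with exact 95% intervals, and in each panel the share kept is highest at a −log10 p of 20 or more, where 76.7% of LIF genes and 95.3% of RA genes were kept.

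The genes with the strongest kept peaks were led by sites with a tract or with a peak in every library. Fam149b had a −log10 p of 89.9 in LIF and 92.9 in RA, with a tract under the peak. Setd2, whose enzyme trimethylates histone H3 at lysine 36, had 80.8 and 95.9, at an internal transcript start in an intron and with no tract. Sfi1, which encodes a centrin-binding protein, had 82.7 and 69.6, and the gene models Gm10800 and Gm10722 had 85.1 and 65.4 and 64.3 and 40.9. Each of these 5 promoters also had a peak in all other 6 libraries. Atp8b2, Col19a1, Tnnt1, Arhgap26 and Rbpms completed the 10 genes, each on a tract, with LIF values from 43.6 at Arhgap26 to 82.9 at Atp8b2 and RA values from 41.1 at Rbpms to 60.6 at Atp8b2. Among kept genes without a tract, chosen after the values were seen, Lca5l had 62.6 and 39.0, Smarcd1, a subunit of the BAF chromatin remodeller, 38.4 and 23.7, and Mtnr1a, a melatonin receptor, 23.6 and 26.4.

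The strongest LIF-only values were lower. A single peak on mitochondrial DNA at mt-Cytb and mt-Nd6 had a −log10 p of 31.8, and mt-Nd2 had 29.7. The LIF list held 8 peaks on the mitochondrial chromosome and the RA list 2, and 3 or 4 of the other libraries had a peak at these 3 genes too. On nuclear chromosomes the highest was Morf4l2 at 31.6, on a tract. Tmem8b had 27.4, Spg21 26.8, Serpind1 26.7, and a peak shared by Iscu, an iron-sulfur cluster scaffold, and Sart3, a splicing factor, 25.3. Without a tract, and chosen after the values were seen, came Mael at 24.4, Utp3 at 23.1, Rimklb at 23.0 and Ugdh, the enzyme that makes UDP-glucuronate, at 22.5. Each of the LIF-only genes named here would still have been listed at RA depth.

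All 10 RA-only genes with the highest values had a tract under the peak. Gm6812 had a −log10 p of 54.5 in RA, Muc2, a secreted mucin, 44.9, Vav1, a guanine exchange factor of blood cells, 40.2, and Fut9, the fucosyltransferase that makes the SSEA-1 epitope, 38.2. Cdh23, Slco3a1, Slc28a2, Cacna1d, Lrrc2 and Hibch ranged from 23.2 at Hibch to 33.7 at Cdh23. None had a LIF peak at a promoter, although the LIF library was the deeper one. RA-only genes without a tract, chosen after the values were seen, were lower. They were led by Cavin3, a caveolar coat gene, at 21.9, Akap12, a kinase scaffold, at 20.9, Ccdc93 at 19.97, Arhgef15 at 19.4 and Nfu1, an iron-sulfur cluster gene, at 19.1. The strongest peak held a tract at 9.49% (7.62 to 11.6%) of RA-only genes, against 3.13% (2.67 to 3.65%) of LIF-only genes and 4.68% (4.06 to 5.35%) of kept genes by their LIF peak. Among the 556 LIF-only genes that passed at RA depth the share was 9.89% (7.54 to 12.7%), whose interval overlaps that of the RA-only genes.

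The 47 nuclear receptor genes, the family to which RXR belongs, had RXR peaks at 9 kept, 10 LIF-only and 4 RA-only promoters, shares of 19.1%, 21.3% and 8.51% beside 19.4%, 23.1% and 3.94% of all genes. Among the retinoid receptors, Rara had a −log10 p of 8.30 in LIF and 6.63 in RA at coinciding peaks. Rarb, the receptor gene that RA induces, had 9.42 and 9.43, but these peaks lay at different positions and the RA peak held a tract. Rxrg, the γ form of RXR, had 10.6 and 11.9 at coinciding peaks, while Rxra, Rxrb and Rarg had no promoter peak in either state. Of the Nur77 family, Nr4a2 was kept, with 13.2 and 7.68 at different positions, Nr4a3 was LIF only with 5.31, and Nr4a1, the gene of Nur77 itself, had no peak. Thrb, a thyroid hormone receptor, had 12.5 and 8.62, Nr1h3, the oxysterol receptor LXRα, 11.4 and 9.75, and Pparg, the receptor of fat cell formation, 8.91 and 8.28. Esr1 and Nr3c2, steroid receptor genes, had 7.19 and 7.44, and 10.8 and 8.82, the latter on a tract.

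LIF-only receptor genes were led by Nr1d2, a haem-binding clock repressor, at 13.8 and Nr2c1 at 12.4, followed by the fatty acid receptors Ppard at 10.6 and Ppara at 10.3. Nr2f2 and Nr2f6 of the COUP-TF group had 9.55 and 9.50, and Nr0b2, Nr6a1, Nr4a3 and Esrra ranged from 5.31 to 8.37. Of these 10 genes 0 had a peak that passed the scaling rule. The LIF peaks of the kept receptor genes did not pass it either, although all of those genes had a listed RA peak. The rule therefore does not decide whether the absence of the LIF-only genes from the RA list comes from its depth. The RA-only receptor genes were Nr5a1, the steroidogenic regulator SF-1, with 14.9 and 16 summit fragments, Esrrg with 8.43, and Nr0b1 with 8.43 and 6 fragments, beside Nr3c1 with 7.97. With the same number of peaks the family had 5 kept, 3 LIF-only and 8 RA-only genes, beside 12.2%, 10.2% and 11.1% of all genes.

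Of 24 genes for retinoid synthesis, binding and breakdown, 3 were kept (12.5%, beside 19.4% of all genes), 7 were LIF only (29.2%, beside 23.1%) and 1 was RA only. Rdh14, a retinal reductase, was the one with coinciding peaks, at 11.9 in LIF and 16.6 in RA. Aldh1a3, which oxidises retinal to RA, had 9.95 and 7.27, and Rdh10, which makes retinal, had 9.95 and 6.28, each at different positions in the 2 states. The LIF-only members were the binding protein genes Rbp7 at 17.9 and Crabp1 at 12.2, the RA-making Aldh1a2 at 13.4, the retinol-esterifying Lrat at 12.9, Rdh13 at 11.9, and the RA-degrading Cyp26c1 and Cyp26a1 at 12.3 and 10.6. All 7 stayed LIF only with the same number of peaks, a class that then held 10.2% of all genes. Rbp7, with 18 summit fragments, was the single one that would have been listed at RA depth. The RA-only member was Rdh5, at 9.28 with 7 fragments.

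Of 25 known RA response genes, 2 were kept, 5 were LIF only and 0 were RA only, beside 19.4%, 23.1% and 3.94% of all genes. Beside Rarb, the kept gene was Nrip1, a corepressor, with 9.89 in LIF and 8.91 in RA at different positions. Among the LIF-only members Hoxa2, Nr2f2, Egr1 and Cyp26a1 had 9.14, 9.55, 9.97 and 10.6. The peaks of the 2 kept members did not coincide, and none of the 5 LIF-only peaks would have been listed at RA depth.

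The 22 coactivator and corepressor genes had 6 kept (27.3%), 11 LIF-only and 1 RA-only member, beside 19.4%, 23.1% and 3.94% of all genes. Ep300, the acetyltransferase p300, had 10.7 in LIF and 11.1 in RA, Ncoa1, the coactivator SRC-1, 9.57 and 10.5, and Carm1, an arginine methyltransferase, 7.60 and 9.51. Ncoa7 had 13.4 and 10.2 and Ncoa6 10.4 and 8.28. LIF-only members ran from Ncoa2 at 14.6 and Ncoa5 at 13.5 down to Tbl1x at 6.79, and included Ncor1, the corepressor NCoR, at 10.5 and Med1, a Mediator subunit that contacts nuclear receptors, at 7.22. Prmt1 was RA only at 7.90. None of the LIF-only members passed at RA depth.

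The 26 pluripotency genes had 4 kept, 8 LIF-only and 4 RA-only members, and the RA-only share of 15.4% stood beside 3.94% of all genes. Smad1, a mediator of BMP signalling, was kept by all 3 counts, with 16.0 in LIF and 11.7 in RA. The Krüppel-like factor genes Klf2 and Klf5 had 13.0 and 9.34, and 11.3 and 10.6. The LIF-only values were highest at Tfcp2l1, a factor of the naive state, with 20.9 and 23 summit fragments, and at Suz12, a Polycomb subunit, with 13.8, and both would have been listed at RA depth. Sox2 had 10.2, Zfx 10.5, Mycn 7.70, Lin28a 7.06, Zfp42 6.79 and Stat3, the effector of LIF, 6.68, and none of these passed the scaling rule. The RA-only members were E2f1 at 9.95, Sall4 at 8.97, Nr0b1 at 8.43 and Tbx3 at 7.44, with 6 to 9 summit fragments each. With the same number of peaks the RA-only members were the same, beside 11.1% of all genes. Pou5f1, Nanog, Klf4 and Esrrb had no promoter peak in either list.

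**Figure D2:**
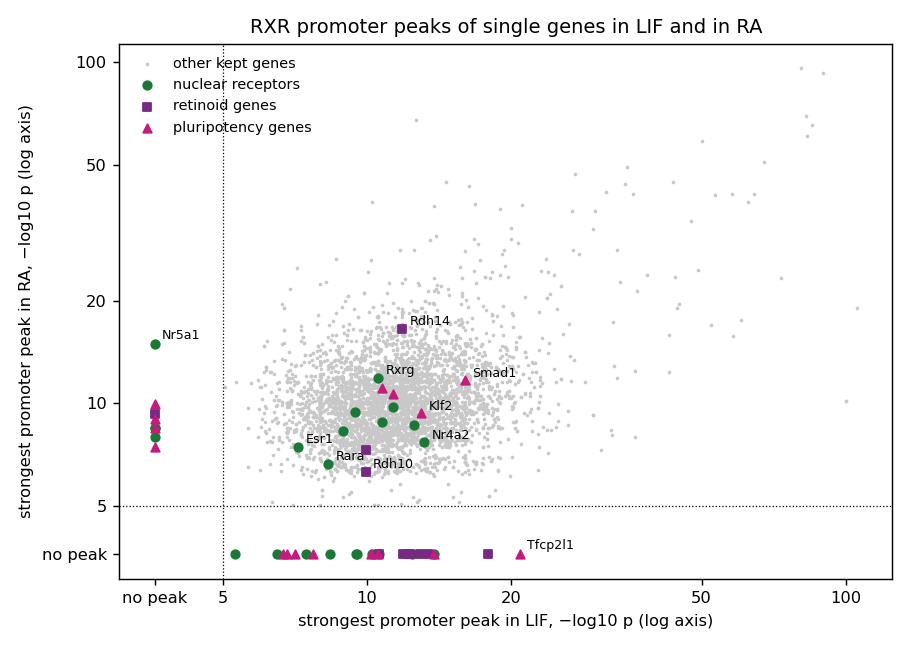
The −log10 p of the strongest RXR promoter peak of a gene in LIF (horizontal) and in RA (vertical), both on log axes, with genes that have no peak in a list drawn at the edge. Among the nuclear receptor, retinoid and pluripotency genes Rdh14 (11.9 and 16.6) and Rxrg (10.6 and 11.9) lie toward RA, and Tfcp2l1 (20.9) and Nr5a1 (14.9) are at the LIF and RA edges.

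Hox genes, which pattern the body axis and respond to RA in order along their clusters, had 4 kept, 12 LIF-only and 3 RA-only members of 39. The shares of all genes were 19.4%, 23.1% and 3.94%. Hoxd1 had 15.2 in LIF and 12.8 in RA and was kept by all 3 counts. Hoxa5 had 10.4 and 7.28, and Hoxd13 8.82 and 13.6 at different positions. The RA-only promoters were Hoxa11 at 10.1, Hoxc8 at 9.33 and Hoxa7 at 7.17. Other homeobox genes were kept at 5 of 105 (4.76%, beside 19.4% of all genes), LIF only at 25 (23.8%) and RA only at 10 (9.52%, beside 3.94%). Their kept members included Pbx4, a cofactor of Hox proteins, with 12.4 and 12.6, and Pou2f3 with 10.6 and 13.0. The RA-only members included Pou4f2, a factor of retinal ganglion cells, at 10.9, and En1, a gene of the midbrain boundary, at 10.5. None of the 25 LIF-only homeobox genes, and none of the 12 LIF-only Hox genes, had a peak that would have been listed at RA depth.

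Several housekeeping families were kept at a higher share than the 19.4% of all genes, and they are given by role. These shares are of all members, bound or not, so they also reflect how many members had an RXR peak at all. Among all genes bound in LIF, 45.6% were kept. In RNA handling, the SR proteins and hnRNPs, which steer splicing, had 14 kept, 13 LIF-only and 1 RA-only member of 31, so 45.2% were kept. Srsf9 had 14.0 in LIF and 13.5 in RA, and Srsf5 13.4 and 14.1, while Srsf10 was LIF only at 18.0. The genes of small nuclear ribonucleoproteins and the core spliceosome had 15 kept, 11 LIF only and 0 RA only of 47. Lsm11 of the U7 particle had 17.8 and 13.2, and Prpf3 20.2 and 12.6. In translation, 16 of 38 aminoacyl-tRNA synthetases (42.1%) were kept. So were 26 of 68 genes of initiation and elongation factors and of their regulators (38.2%), such as Eef2k and Eif4ebp1. Mars2 had 13.9 and 15.8 and Eprs 11.4 and 12.5, Eif2b3 had 17.3 and 14.7, and Dars and Eif3j1 were LIF only at 14.0 and 17.5.

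In protein folding and turnover, 22 of 66 chaperone genes were kept, 30 were LIF only and 0 were RA only. All genes stood at 19.4%, 23.1% and 3.94%, here and for the families that follow. Cct4 of the chaperonin ring had 17.7 and 13.1 and Dnaja2 21.7 and 13.0, while Dnajc9 and Hspa4 were LIF only at 17.9 and 15.8. Ubiquitin-conjugating enzymes were kept at 13 of 31 (41.9%) and proteasome subunits at 11 of 39 (28.2%). Rab GTPases, which sort vesicles, were kept at 19 of 59 (32.2%). Cytosolic ribosomal protein genes were not kept above the share of all genes, with 16 of 85 (18.8%), while 30 (35.3%) were LIF only and 5 (5.88%) RA only. Rpl29 had 15.2 and 12.7. Rps20 at 18.4 and Rps25 at 16.6 were among 8 LIF-only members that would have been listed at RA depth, and Rps23 was RA only at 11.6. Mitochondrial ribosomal protein genes had 20 kept and 36 LIF only (46.2%) of 78, and respiratory chain and ATP synthase genes 19 kept, 34 LIF only and 6 RA only of 85.

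Of 31 Polycomb genes 9 were kept, 15 (48.4%, beside 23.1% of all genes) were LIF only and 2 were RA only. The LIF-only share was not particular to them, since that of the mitochondrial ribosomal protein genes above was close to it. Ezh1 had 14.7 in LIF and 16.2 in RA, whereas its paralog Ezh2, the methyltransferase subunit of dividing cells, was LIF only at 15.5, as were Epop at 15.2 and Suz12 at 13.8, and these 3 would have been listed at RA depth. Yaf2 was RA only at 11.7. Of 45 lysine methyltransferases and demethylases 12 were kept, 20 (44.4%, beside the same 23.1%) were LIF only, with Ehmt1, the H3 lysine 9 enzyme GLP, at 17.3, and Kdm4b was RA only at 14.0. With the same number of peaks the Polycomb genes had 4 kept, 9 LIF-only and 7 RA-only members and the methyltransferases and demethylases 9, 8 and 4. All genes then stood at 12.2%, 10.2% and 11.1%.

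In signalling, the Bmp, Smad and Id genes had 9 kept, 6 LIF-only and 3 RA-only members of 27. Bmp8b had 29.7 and 32.3 on a tract, and Id3, a target of BMP in ESCs, was LIF only at 13.7. Wnt ligands and Frizzled receptors had 7 kept, 8 LIF only and 2 RA only of 29, with Wnt5a LIF only at 18.1 on a tract and Wnt9a RA only at 10.6. Voltage-gated ion channel genes and related channels, such as the Kcnj and Kcnk genes, had 25 kept, 30 LIF only and 7 RA only of 132. Olfactory receptors had 6 kept, 14 LIF-only and 7 RA-only members of 1093, vomeronasal receptors 0, 1 and 0 of 327, and clustered protocadherins 1, 4 and 0 of 57. Keratins had 3 kept, 1 LIF only and 5 RA only (9.43%, beside 3.94% of all genes) of 53, led by Krt36 at 14.6, and beta-defensins 0, 0 and 3 of 42, led by Defb46 at 12.8. Solute carriers had 81 kept, 85 LIF only and 25 RA only of 365, and Zfp zinc finger genes 70, 119 and 15 of 391. All these counts stand beside 19.4% kept, 23.1% LIF only and 3.94% RA only of all genes, and no family count was tested against them.

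**Figure D3:**
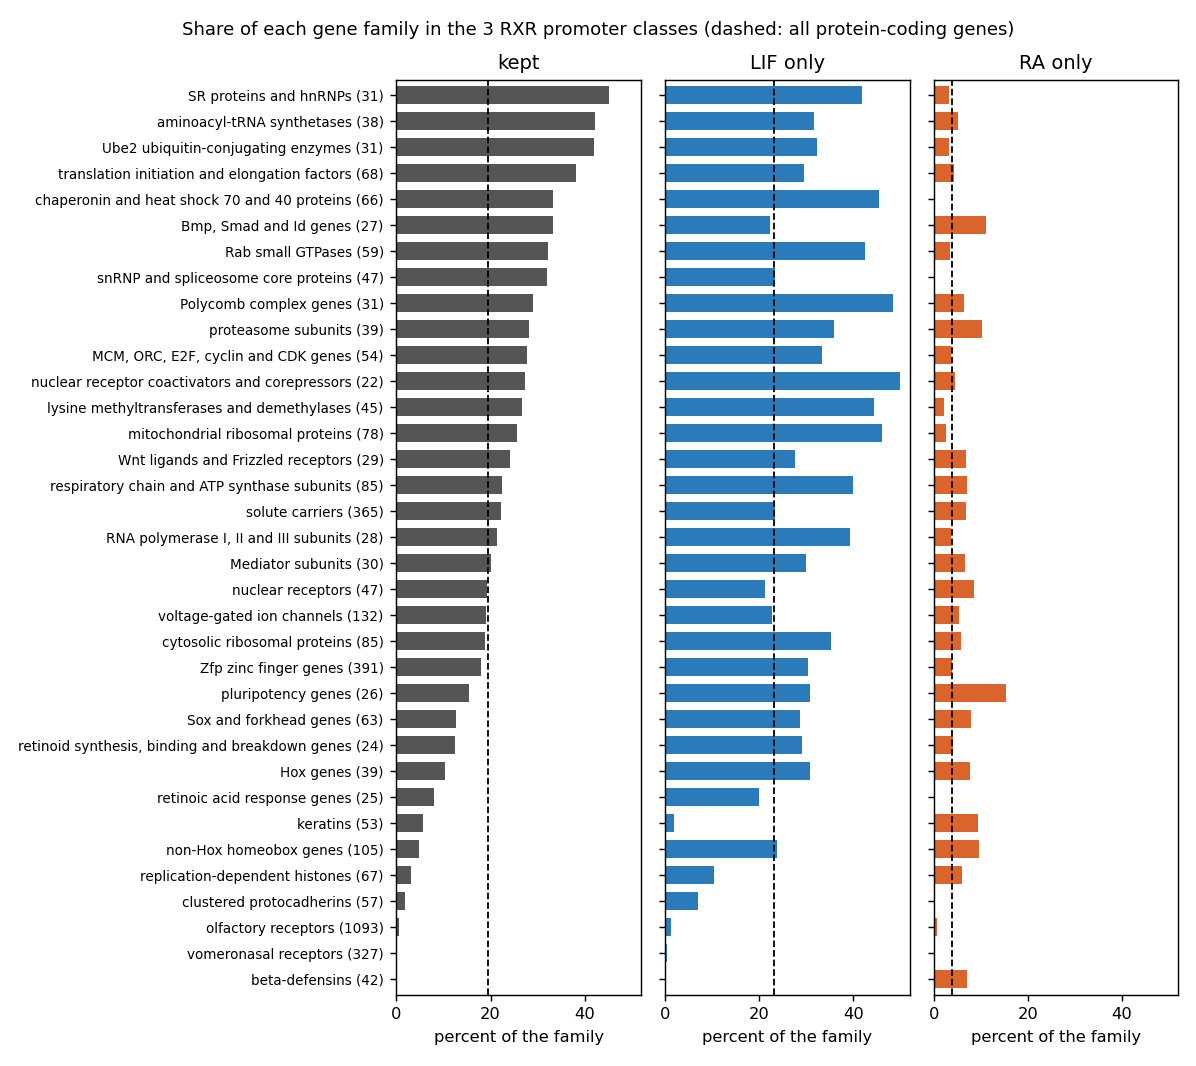
Percent of the members of each gene family with at least 20 members that were kept, LIF only or RA only, with all peaks, the number of members in parentheses and the share of all protein-coding genes as a dashed line. SR proteins and hnRNPs have the highest kept share (45.2%), and non-Hox homeobox genes are kept at 4.76% beside 19.4% of all protein-coding genes.

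At promoters the kept peaks lay closest to transcript starts. The median distance of the summit to the nearest protein-coding start was 102 bp for kept LIF peaks, 166 bp for LIF-only and 171 bp for RA-only peaks, and 49.7%, 37.1% and 37.9% lay within 100 bp. Kept promoter summits were also richer in CpG, with 11.1 CpGs per 100 bp against 9.28 at LIF-only and 9.55 at RA-only summits, and the GC content was 70.3%, 68.0% and 68.2%. The NRF1 word GCGCANGC, searched on both strands, was in 14.1% (13.0 to 15.3%) of kept LIF promoter summits and 2.93% of their flanks. It was in 7.15% (6.64 to 7.69%) of LIF-only summits, in 11.1% (9.81 to 12.6%) of RA-only summits and in 4.83% of all transcript starts. The word can fall within an alternating tract, and without peaks on a tract it was in 14.1%, 7.04% and 10.6%. Of the 719 LIF-only promoter peaks without a tract that passed at RA depth 8.90% (6.92 to 11.2%) held it, an interval that includes the RA-only share. Psip1, Ugdh and Glud1 above are examples, at a −log10 p of 20.2, 22.5 and 13.6.

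Other words showed smaller shares. The cyclic AMP response element TGACGTCA was in 1.48% of kept, 0.765% of LIF-only and 1.16% of RA-only promoter summits, beside 0.802% of all starts. The E-box CACGTG, which can also fall within a tract, was in 5.80%, 4.07% and 5.18% beside 2.48% of starts, and the ETS word CCGGAAGT in 1.92%, 1.19% and 1.21% beside 2.36%. The YY1 word AAGATGGCG was in 1.09% of kept, 0.765% of LIF-only and 0.242% of RA-only summits beside 1.35% of starts. All were read on both strands. The RA-only interval for YY1, 0.0786 to 0.564%, lies below the LIF-only interval of 0.600 to 0.960%, and the counts behind it are small.

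Outside promoters there were 4156 kept LIF peaks, 13227 LIF-only peaks and 5525 RA-only peaks. A tract lay in 71.5% (70.1 to 72.9%) of the kept, 30.6% (29.9 to 31.4%) of the LIF-only and 63.0% (61.7 to 64.2%) of the RA-only peaks. Of the LIF-only peaks without a tract 5.13% passed at RA depth, against 31.3% of those with one. Of the LIF-only peaks that would have been listed at RA depth, 1268 of 1739 (72.9%, 70.8 to 74.99%) held a tract, which is above the RA-only share, and of such kept peaks 81.9% (80.3 to 83.4%) of 2392. RA peaks were wider, and within a fixed 100 bp around the summit the shares were 69.7%, 29.7% and 59.7%. At promoters the shares with all peaks were 6.18%, 3.79% and 11.6%, and among LIF peaks that passed at RA depth they were 15.8% (13.4 to 18.3%) of 876 kept and 120 of 839 LIF-only peaks, or 14.3%. Only LIF peaks were filtered by this rule, and LIF-only peaks with a tract passed it more often, so it did not match the classes for strength. Whether the lower tract share of all LIF-only peaks comes from depth was not tested. Within the tracts outside promoters 81.6% of the steps at kept peaks were CA or TG, against 86.2% at LIF-only and 83.8% at RA-only peaks, and CG steps made up 14.2%, 7.81% and 11.4%. Sites near Grip1, Meis2 and Cntn5 are kept, LIF-only and RA-only examples of such tracts, at a −log10 p of 146 in LIF, 64.7 in LIF and 52.7 in RA. Only uniquely aligned reads were used by the authors, and how well repeats of this kind can be aligned was not tested.

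The median −log10 p outside promoters was 16.0 for kept LIF peaks, 10.2 for LIF-only and 11.3 for RA-only peaks. At RA depth 57.6% of the kept and 13.1% of the LIF-only peaks would have been listed. Summits of the 3 classes lay in introns at 47.6%, 45.5% and 46.4% and in intergenic DNA at 45.7%, 41.7% and 45.6%. Coding exons held 4.91%, 9.61% and 5.79%, and among peaks without a tract 17.1%, 13.8% and 15.6%. The CTCF word was in 1.77% (1.10 to 2.70%) of kept LIF peaks without a tract, in 0.730% (0.566 to 0.927%) of LIF-only and in 2.79% (2.12 to 3.59%) of RA-only peaks, beside 0.0489 to 0.142% of their flanks and 0.0984% of all transcript starts. The intervals of the kept and RA-only shares overlap, and both lie above that of the LIF-only share. At RA depth 1 of 471 LIF-only peaks without a tract (0.212%, 0.00538 to 1.18%) held the word, and 6 of 434 kept peaks (1.38%, 0.509 to 2.98%). The Esrrb intron site above, with a −log10 p of 19.1, is an RA-only example.

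**Figure D4:**
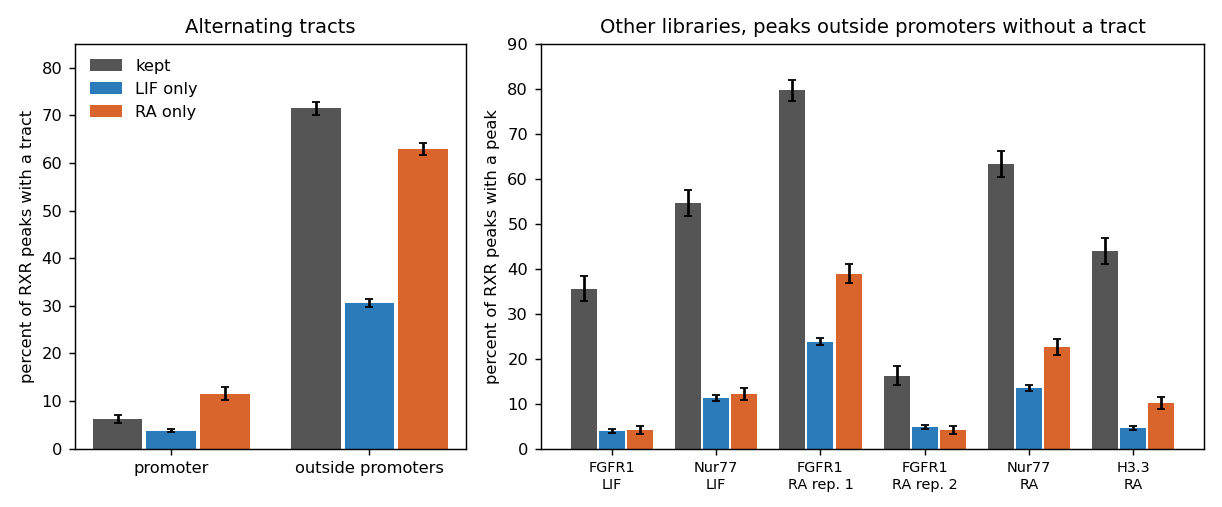
Percent of RXR peaks with a tract, at and outside promoters (left), and percent of RXR peaks outside promoters and without a tract that overlap a peak of each other library (right), by class, with exact 95% intervals and the kept class from the LIF list. A tract lay in 71.5% of kept, 30.6% of LIF-only and 63.0% of RA-only peaks outside promoters with all peaks (72.9% of LIF-only peaks that would have been listed at RA depth), and Nur77 in RA had a peak at 63.3%, 13.6% and 22.6% (36.1% of such LIF-only peaks).

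The strong sites named here outside promoters had a peak in 0 to 6 of the other 6 libraries. The strongest kept LIF site, near Gm8797 and without a tract, had a peak in all 6. Kept LIF sites without a tract near Ly6c2, Axin2 and Gm6020 also had a peak in all 6. The kept site near Grip1 had 146 in LIF and a peak in 5 of the other 6 libraries, and the kept site without a tract near Tcp10c had 128 in LIF and 115 in RA and was also in 5. Among LIF-only sites without a tract, the strongest was near Ly6c2 (50.4, in 3 other libraries) and the next in an intron at −32193 bp from Scaf8 (48.3, in 4). The LIF-only Ly6c2 site, at 26127 bp, lay beside the kept Ly6c2 site at 24797 bp, so its cluster also had an RA peak. A further LIF-only site with 45.7 lay between them, at 25238 bp. Among RA-only sites without a tract, an intron site at −12067 bp from Tmem189 (chr2:167701787-167701975) stood apart with 64.1 and peaks in 5 other libraries. Next were intron and intergenic sites near Phf3 (32.6, in 2 others) and Dynlrb2 (32.1, in 4), and a site at −4924 bp from Kbtbd12 had 27.2 and a peak in 0 other libraries.

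Near the retinoid genes, several sites beyond the promoter were kept where the promoter was not. Dhrs3, a retinal reductase that RA induces, had an intron site at 2649 bp with 46.6 in LIF and 56.7 in RA. Crabp1 and Aldh1a2, LIF only at the promoter, had kept sites at 15944 bp with 43.1 and 31.8 and at 25254 bp with 29.9 and 44.4. Cyp26c1 had one at −17380 bp with 38.7 and 27.3, which is also −29597 bp from Cyp26a1, and each of these 4 sites held a tract. Stra6, the retinol uptake receptor, had a kept site without a tract at −28961 bp, in an intron, with 23.0 and 17.8. Meis1, a cofactor of Hox proteins, had one at −8466 bp with 10.0 and 12.2, and Hoxb1 one at 41639 bp with 11.6 and 11.3. RA-only sites lay at −4640 bp from Cyp26a1, in a coding exon, with 9.36, at 5204 bp and 1808 bp from Rbp4, the plasma retinol carrier, with 17.8 and 17.0 on tracts, and at −5738 bp from Dhrs9 with 12.9.

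In all, within 50 kb of the starts of the 24 retinoid genes there were 11 kept and 18 LIF-only LIF peaks and 7 RA-only peaks outside promoters, of which 8, 7 and 4 held a tract. For the 25 RA response genes these were 11, 36 and 14, for the 47 nuclear receptor genes 12, 57 and 19, for the 26 pluripotency genes 7, 43 and 13, and for the 39 Hox genes 3, 25 and 6. All peaks outside promoters numbered 4156 kept, 13227 LIF only and 5525 RA only. No count near other genes is given, so it is open whether these lists differ from other genes. Nearness does not show that a site acts on a gene.

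The other libraries were read at the same genes, since they took no part in the classes. Of the kept genes 60.3% (58.8 to 61.8%) had a promoter peak of Nur77 in LIF and 62.9% (61.5 to 64.4%) of Nur77 in RA. Nur77 in LIF was at 39.2% (37.8 to 40.5%) and Nur77 in RA at 37.1% (35.7 to 38.4%) of LIF-only genes, and at 31.6% (28.5 to 34.8%) and 34.4% (31.2 to 37.6%) of RA-only genes. The share with Nur77 in RA thus had overlapping intervals at RXR LIF-only and RA-only genes. Genes with no RXR peak had them at 6.55% and 6.91%.

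The growth factor receptor FGFR1, measured in RA in 2 libraries, had a peak at 94.0% and 84.3% of kept, 79.7% and 77.2% of LIF-only and 75.7% and 59.0% of RA-only genes, against 20.8% and 24.5% of genes with no RXR peak. The histone variant H3.3, measured in RA, was at 44.0%, 20.1% and 21.8% of the 3 classes. At 93 RA-only genes (10.8%, 8.78 to 13.0%) none of the other 6 libraries had a peak, against 235 LIF-only genes (4.63%, 4.07 to 5.25%) and 36 kept genes (0.846%, 0.593 to 1.17%). All 6 had one at 637 kept genes, 158 LIF-only (3.11%) and 10 RA-only genes (1.16%). The 556 LIF-only genes that would have been listed at RA depth lay between the classes, with Nur77 in RA at 47.3% (43.1 to 51.5%) and H3.3 at 30.9% (27.1 to 35.0%).

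Outside promoters and without a tract, with all peaks, the RA-only RXR sites had a higher share with a peak than the LIF-only sites in 3 of the 4 other RA libraries. Nur77 in RA had a peak at 22.6% (20.8 to 24.5%) of RA-only and 13.6% (12.9 to 14.3%) of LIF-only sites, H3.3 at 10.2% (8.89 to 11.6%) and 4.50% (4.09 to 4.95%), and the first FGFR1 library in RA at 38.9% (36.8 to 41.1%) and 23.8% (23.0 to 24.7%). The second FGFR1 library in RA went the other way, at 4.20% and 4.83%. Nur77 in LIF was at 12.1% (10.7 to 13.6%) and 11.3% (10.6 to 11.9%), and FGFR1 in LIF at 4.20% and 3.99%, so with all peaks the libraries from LIF did not show the converse. This order was not seen when the LIF-only sites alone were filtered by the scaling rule. That filter kept the stronger LIF-only sites and left the RA-only sites as they were, so it did not match the classes. Among the 471 LIF-only sites without a tract that passed at RA depth, Nur77 in RA had a peak at 36.1% (31.7 to 40.6%), the first FGFR1 library in RA at 49.3% (44.7 to 53.9%), the second at 10.4% (7.80 to 13.5%) and Nur77 in LIF at 36.5% (32.2 to 41.0%), each above the share at RA-only sites, while H3.3 was at 11.3% (8.54 to 14.5%), an interval that overlaps that of the RA-only sites. At kept sites Nur77 in RA was at 63.3% and H3.3 at 43.9%.

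Nur77, the receptor profiled in both states in the same way, gave another picture at promoters with all peaks than RXR did. With all peaks, 3084 genes were kept (14.0%), 2513 were LIF only (11.4%) and 2584 were RA only (11.8%). Of its LIF genes 55.1% and of its RA genes 54.4% were shared, and the bound genes numbered 5597 in LIF and 5668 in RA, against 9329 and 5119 for RXR. With the same number of peaks in each list, RXR had 4916 bound genes in LIF and 5119 in RA, of which 54.6% and 52.5% were shared. That the LIF and RA shares are close follows from the close totals, here and for Nur77. The depth of the Nur77 libraries was 4.98 and 3.82 background fragments per kb, a smaller gap than that of RXR. With 1 library of each in each state, the difference between the receptors was not tested and cannot be told apart from the depths.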

How the data were processed

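Chromatin from LIF and RA cells was sequenced after immunoprecipitation with an RXR antibody. The authors aligned reads to mm10 with Bowtie 1.0, keeping unique reads, and called peaks per library with MACS2 at a p limit of 1e-05, with no control library named. The deposited peak lists hold a fold ratio, a −log10 p-value and a −log10 q-value at each summit, all made by the authors, and replicates were not pooled. The number of summit fragments and the background were solved here from the fold and the Poisson p, which gave a whole number within a −log10 p of 0.002 for 100% of peaks. Genes and starts came from GENCODE M21, and sequence from RefSeq GRCm38. Python 3.11.15, pandas 2.3.3, scipy 1.17.1 and pysam 0.24.0 were used, and the scripts were tested on simulated data. The members and lists were chosen with earlier results of these data known. Named genes were, per class, the 10 with the highest −log10 p (for kept, of the lower value) whose class did not change with the same number of peaks, the members of 5 receptor, retinoid and pluripotency lists, 2 to 4 per other family, and the 5 strongest sites outside promoters. Lists of genes without a tract, the sequence examples the ranges of peak strength, and the shares with a tract, a word or another library's peak among LIF peaks passing at RA depth were chosen after the values were seen. Windows of 100 bp at summits were searched for 14 words, and distances are from the summit to the nearest start, negative upstream. Other peak limits, match rules, promoter widths, and counts without tracts or scaled for depth were tried as alternatives. A few genes and sequences that the naming rule would give are not reported here.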

Additional observations from a re-analysis of the deposited data

Results flagged for a closer look

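The change in the number of protein-coding genes with a promoter peak differed between the receptors. It was 0.549 times as many in RA as in LIF for RXR (5119 and 9329 genes) and 1.01 times as many for Nur77 (5668 and 5597 genes). The Nur77 numbers are within 1.5 times of each other and the RXR numbers are not. With the same number of peaks in each list, RXR had 4916 genes in LIF and 5119 in RA. Each receptor had 1 library per state, and the difference was not tested. The depths moved with it, at 7.09 and 1.87 background fragments per kb for RXR in LIF and RA and 4.98 and 3.82 for Nur77.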

How the results depend on the processing

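The class counts depended on how depth was met. With the same number of peaks, 36.9% of LIF peaks and 36.5% of RA peaks were kept, against 25.5% and 50.1% with all peaks. Genes then numbered 2686 kept, 2230 LIF only and 2433 RA only, and LIF-only peaks outside promoters fell from 13227 to 6100. With LIF scaled to RA depth the shares were 55.9% and 21.3%, the genes 1067, 556 and 4052, and the peaks outside promoters 2392 kept, of 4156, and 1739 LIF only. Fewer LIF peaks remain by construction in both, and lists of equal length by themselves make the LIF and RA shares close. Chosen after seeing the data, the share of LIF-only peaks with a tract was also counted at RA depth, and was 72.9% against 30.6% outside promoters and 14.3% against 3.79% at promoters. At a −log10 p of at least 10, 46.9% of RA peaks were kept, kept genes fell from 4255 to 1521, LIF-only and RA-only peaks outside promoters to 7386 and 3552. Without tract peaks the kept shares were 19.9% and 53.2%, and outside promoters 1146 peaks were kept and 2072, of 5525, were RA only. Matching by 50% of the shorter peak gave 23.3% and 46.2%, and summits within 100 bp gave 21.9% and 43.9%. The other counts, including promoters of 500 bp and a summit inside the promoter, stayed within 1.5 times, and a −log10 q of at least 2 removed no peak. No paired analysis was possible because each state had 1 RXR library. A LIF-only promoter peak had a median of 12 summit fragments, which is 3.16 at RA depth, below the lowest listed number of 4. Kept LIF promoter peaks had a median of 13, or 3.43 at RA depth, although each had a listed RA peak. The scaled number therefore does not show which LIF-only sites could have been listed in RA.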
